A study of Oryza sativa with 24 samples.

Results

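Gene expression in young rice panicles was compared between the filling of pollen (stage 7) and the meiosis of pollen mother cells (stage 6), with the genotypes pooled. Plants were of the indica variety IR64, and each stage held panicles of tps2/tps3/tps6 triple mutants, in which 3 genes for class II trehalose phosphate synthases are gene edited, and of wild-type plants of the same variety. The series held 24 labelled columns from 4 stages, with 3 biological replicates per genotype and stage. At stage 7 the wild-type columns of replicates 2 and 3 held the same values in every row as the mutant columns of the same number, and at stage 6 this was so for replicate 3. Identical columns entered once, as a library of unresolved genotype, which left 9 distinct libraries of the 24 columns for the comparison. The 4 libraries of stage 7 were mutant replicate 1, wild-type replicate 1 and 2 libraries that stand under both genotypes. The 5 libraries of stage 6 were mutant replicates 1 and 2, wild-type replicates 1 and 2 and 1 library that stands under both genotypes. The sources used here do not say how many edited lines the mutant replicates came from.

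In meiosis, pollen mother cells divide into haploid microspores inside the anther, where the tapetum, the innermost layer of the anther wall, feeds them and supplies material for the pollen wall. Microspores then divide by mitosis, and the pollen grain fills with starch and other reserves before it matures. Class II trehalose phosphate synthases resemble the enzyme that makes trehalose 6-phosphate, a sugar phosphate that signals sucrose status in plants, but most of them have little or no such activity. A panicle sample also holds glumes, anther walls, pistils and stalk tissue, so fewer cells of a type and less RNA per cell cannot be told apart in these values.

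Genes are given by their identifiers, because 0 of the 36099 identifiers matched the reference table of 39387 rice genes. Markers of meiosis, of the tapetum and of pollen could therefore not be looked up, and neither the labelled stages nor the edited genes were checked by name. For the same reason few identifiers are named, and the step is described mainly through the number, size and course of the changes. Total counts per library ranged from 12262465 to 13671337 at stage 7 and from 11764929 to 15860931 at stage 6.

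The step from meiosis to pollen filling changed about as many genes upward as downward, but the rises were much larger than the falls. Of 20887 genes tested, 6796 changed (32.5%). Of these, 3621 were higher at stage 7 (17.3% of those tested) and 3175 were lower (15.2%), at an adjusted p under 0.05 in the quasi-likelihood test of edgeR with Benjamini-Hochberg adjustment. The median log2 fold change was 1.23 among the genes that rose, a 2.35-fold change, and -0.69 among those that fell, a 1.62-fold change. The median over all genes tested was -0.03. A fitted rise of over 2-fold was found for 2166 genes (59.8% of those that rose), and a fitted fall of over 2-fold for 800 genes (25.2% of those that fell). At over 8-fold the numbers were 442 higher and 14 lower, and at over 32-fold 96 higher and 0 lower. Of the genes that rose, 15 had no count at stage 6, and with these set to the lower bound of their fold the median log2 rise was again 1.23 and 95 genes were over 32-fold. When the test itself asked for a change of over 2-fold, 938 genes were higher and 87 lower.

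**Figure D1:**
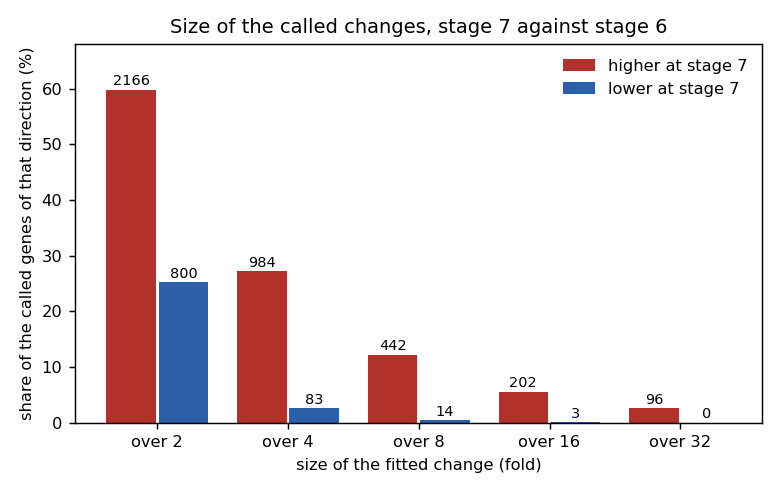
Share of the called genes of each direction (vertical axis, percent) whose fitted change between stage 7 and stage 6 exceeded the fold on the horizontal axis, with the number of genes above each bar. Red bars are genes higher at stage 7 and blue bars genes lower at stage 7; the red bars are taller at each size, and 96 higher genes against 0 lower genes passed 32-fold.

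For most of the called genes the libraries of both stages stood apart. The 4 stage 7 libraries all lay above the 5 stage 6 libraries for 2976 of the 3621 genes that rose (82.2%), against 15.5% of all genes tested. They all lay below them for 2377 of the 3175 genes that fell (74.9%), against 12.9% of all genes tested. The calls were made from these same 9 libraries, so these shares follow largely from the choice of the genes. They describe the called genes and lend the calls no support. The first principal component of log2 CPM over the 9 libraries took 61.4% of the variance and separated the stages, and the second took 10.8%. The common biological coefficient of variation, the spread between libraries beyond counting error, was 26.5% within stage 7 and 27.0% within stage 6. It was 20.2% within stage 7 without wild-type replicate 1, the only stage 7 library left out for this measure. On the second component, mutant replicate 1 stood at -62.9, against 4.67 to 16.9 in the other stage 7 libraries. When only the 6 libraries of resolved genotype were fitted, with genotype as a term, 2100 genes were higher and 833 lower, and the genes that rose were 71.6% of those called, against 53.3% with all 9 libraries. Without the wild-type stage 7 library the numbers were 3085 higher and 2167 lower.

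**Figure D2:**
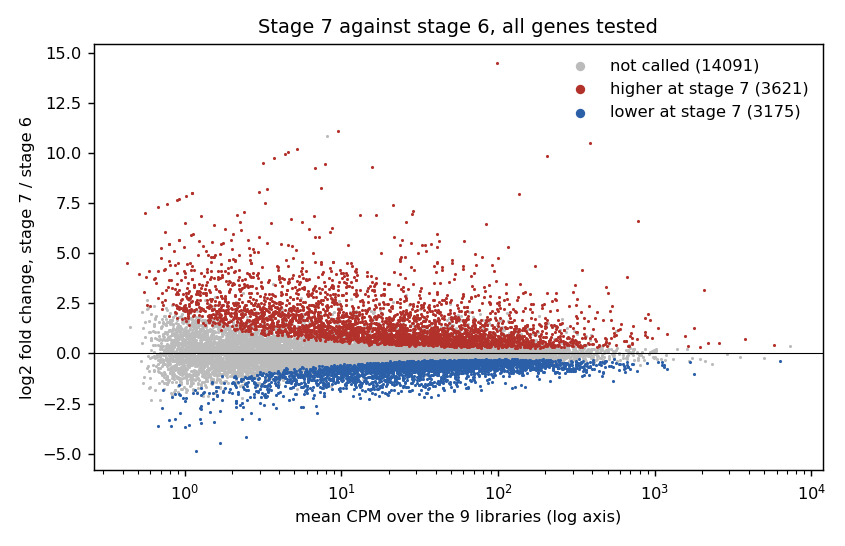
Log2 fold change between stage 7 and stage 6 (vertical axis) against mean CPM over the 9 libraries (horizontal log axis) for the 20887 genes tested. Red points are the 3621 genes called higher at stage 7, blue points the 3175 called lower and grey points the rest; the red points reach far higher than the blue points reach down.

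The direction of change differed with the abundance of the reads of a gene, taken as its mean over the 9 libraries in CPM, the counts scaled to the size of the library. Among 6513 genes with 1 to 10 CPM, 18.6% were higher at stage 7 and 8.11% lower. Among 11301 genes with 10 to 100 CPM, 16.1% were higher and 18.7% lower. Among 2411 genes with 100 to 1000 CPM, 21.1% were higher and 21% lower. The median log2 rise was 1.95 in the class of 1 to 10 CPM, 0.92 in the class of 10 to 100 CPM and 0.72 in the class of 100 to 1000 CPM. The median log2 falls in these classes were -1.22, -0.66 and -0.56. Genes with few reads need a larger change to pass the threshold. CPM is not scaled to gene length, and these classes rank reads, not transcripts.

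More genes were detected at stage 7. With each library thinned to 11764929 counts, 20209, 20245, 20306 and 20461 genes reached 1 CPM in the 4 stage 7 libraries, and 19441, 19475, 19673, 19702 and 19727 genes in the 5 stage 6 libraries. The groups did not overlap. The means were 20305 ± 111 genes at stage 7 (SD, n = 4) and 19604 ± 135 genes at stage 6 (SD, n = 5). The difference had p = 0.016 in a two-sided exact permutation test, which is the smallest p that 4 against 5 libraries allow, and 0.048 adjusted over 3 measures. The 100 genes with the most counts held 13.4 ± 0.495% of counts at stage 7 (SD, n = 4) and 12.8 ± 0.565% at stage 6 (SD, n = 5), which overlapped between the stages (exact permutation test, adjusted p = 0.24). The number of genes that hold 50% of the counts was 1800 ± 49.4 at stage 7 (SD, n = 4) and 1864 ± 84.1 at stage 6 (SD, n = 5), and these overlapped as well (exact permutation test, adjusted p = 0.24). Neither measure of concentration thus differed beyond the spread between libraries.

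A small set of genes had counts at stage 7 and none at stage 6. These were 11 genes with no count in any of the 5 stage 6 libraries and at least 1 CPM in each stage 7 library, and 10 of them were called higher. This choice of genes fixes the direction, so nothing is read from that count beside the 17.3% of all genes tested that were called higher. The reverse pattern, no count at stage 7 and at least 1 CPM in each stage 6 library, was found for 0 genes. Their mean at stage 7 had a median of 9.79 CPM over the 11 genes and reached 222 CPM. At stage 8 the median was 95.6 CPM, and 10 of the 11 had a higher mean at stage 8 than at stage 7. At stage 5, 2 of the 11 had a count. In the wild-type stage 7 library 10 of the 11 had their highest stage 7 value, as did 58.1% of the genes that rose and 29.8% of all genes tested.

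OsIR64_01g0044260, one of these 11, had the largest fitted rise among called genes whose stages did not overlap and whose stage 7 mean was at least 5 CPM. It stood at 205 CPM in mutant replicate 1, at 44.0 and 54.7 CPM in the libraries under both genotypes and at 583 CPM in wild-type replicate 1 of stage 7, and had no count in the 5 stage 6 libraries. Its stage 7 libraries spread over more than a factor of 10, with wild type highest and the libraries under both genotypes lowest. Against a floor of 3 counts over the stage 6 libraries, which covers counting error only, the stage 7 mean of 222 CPM was at least 4906-fold higher and the lowest stage 7 library at least 973-fold higher (edgeR adjusted p = 0.023). Without mutant replicate 1 of stage 7 the call was lost (edgeR adjusted p = 0.065). The gene also had no count in the 6 libraries of stage 5, and at stage 8 it ranged from 1379 to 3911 CPM with a median of 1733 CPM.

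OsIR64_02g0025330 had the largest rise in reads among the remaining candidates. It stood at 2970 and 3140 CPM in the stage 7 libraries under both genotypes, at 4365 CPM in mutant replicate 1 and at 5908 CPM in wild-type replicate 1. At stage 6 it stood at 555 and 669.9 CPM in mutant replicates 1 and 2, at 283 CPM in the library under both genotypes, and at 280.3 and 487 CPM in wild-type replicates 1 and 2. The lowest stage 7 library was more than 4 times the highest stage 6 library. This was an 8.97-fold rise (edgeR adjusted p = 7.6e-05), and the fitted log2 change was 3.17 with an SE of 0.32. Its mean was 95.2 ± 13.5 CPM at stage 5 (SD, n = 6) and 8090 ± 3612 CPM at stage 8 (SD, n = 6), so its stage means went up at each step.

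OsIR64_07g0003090 had the largest fitted fall among called genes whose stages did not overlap and whose stage 6 mean was at least 5 CPM. Stage 7 libraries held 1.77 CPM in mutant replicate 1, 2.30 and 1.62 CPM under both genotypes and 0.18 CPM in wild-type replicate 1. Stage 6 libraries held 12.5 and 9.04 CPM in mutant replicates 1 and 2, 10.3 CPM under both genotypes, and 17.2 and 7.97 CPM in wild-type replicates 1 and 2. The groups did not overlap, and the fitted log2 change was -2.96 (SE 0.47, edgeR adjusted p = 5.1e-04). Its mean was 15.6 ± 5.72 CPM at stage 5 (SD, n = 6), and 4 of the 6 stage 8 libraries had no count.

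OsIR64_11g0025240 lost the most reads among the called genes whose stages did not overlap, although its fold was small. It stood at 5626 CPM in mutant replicate 1, at 5704 and 5812 CPM under both genotypes and at 4234 CPM in wild-type replicate 1 of stage 7. At stage 6 it stood at 8563 and 7334 CPM in mutant replicates 1 and 2, at 7215 CPM under both genotypes, and at 6041 and 5884 CPM in wild-type replicates 1 and 2. The highest stage 7 library was just below the lowest stage 6 library. The fitted log2 change was -0.40 (SE 0.14, edgeR adjusted p = 0.042), a 1.32-fold fall. This call was fragile. It was lost without mutant replicate 1, mutant replicate 2 or the shared library of stage 6 (edgeR adjusted p = 0.098, 0.078 and 0.086), and without mutant replicate 1, either shared library or wild-type replicate 1 of stage 7 (0.068, 0.082, 0.074 and 0.14). It was kept without wild-type replicate 1 or 2 of stage 6 (0.031 and 0.019). With the replicate number as a block the adjusted p was 0.055. At stage 8 its mean was 2798 ± 631 CPM (SD, n = 6) and at stage 5 it was 6756 ± 923 CPM (SD, n = 6).

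**Figure D3:**
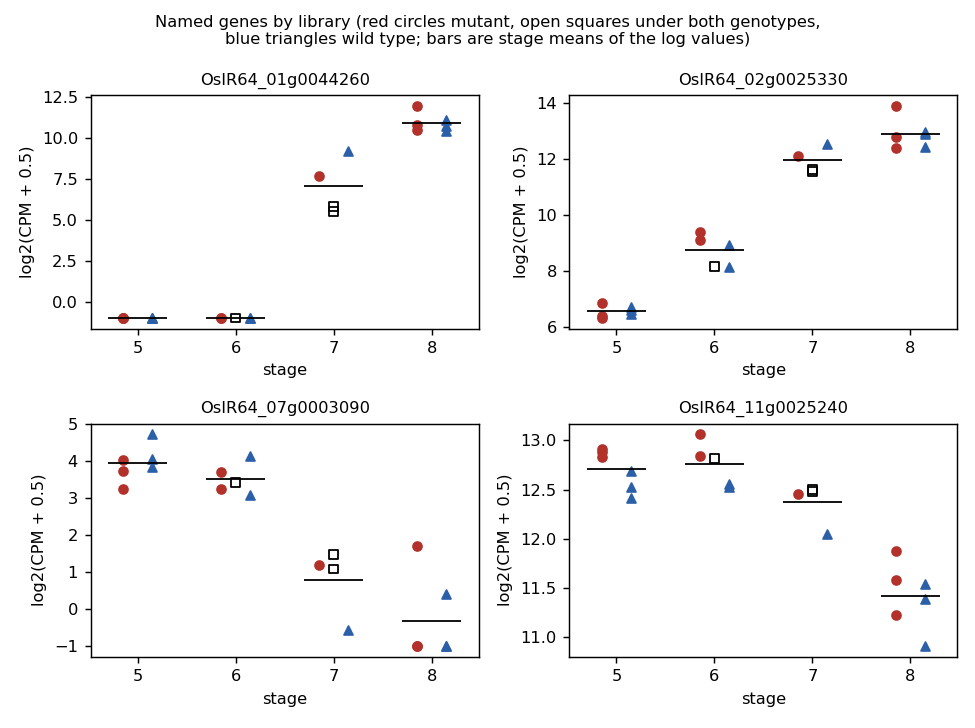
Level of the 4 named genes on the scale log2(CPM + 0.5) (vertical axes) in each of the 21 distinct libraries by stage (horizontal axes), with mutant libraries as red circles, libraries under both genotypes as open squares, wild-type libraries as blue triangles and stage means of the log values as bars. The 2 genes of the upper row are higher in each of the 4 stage 7 libraries than in the 5 stage 6 libraries, and the 2 of the lower row are lower.

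The stage 5 and stage 8 libraries, which had no part in choosing the called genes, showed where the changes stood in the longer course. Medians over the genes that rose were taken per library on the scale log2(CPM + 0.5) and set against the mean of stage 6. They lay between -0.62 and -0.44 in the 6 stage 5 libraries and between 0.72 and 1.37 in the 6 stage 8 libraries. The stage 7 libraries, which did choose the genes, lay between 1.03 and 1.41. The stage 6 libraries chose them too, so offsets of stages 5 and 8 from the stage 6 mean are not free of that choice. Over the genes that fell, the medians lay between 0.19 and 0.36 at stage 5, between -0.89 and -0.58 at stage 7 and between -0.96 and -0.56 at stage 8. The corresponding medians over all genes tested stayed between -0.10 and 0.03 in these libraries. On these medians the genes that rose were already lower at stage 5 than at stage 6, and stage 8 libraries overlapped with stage 7 libraries for both lists.

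As a share of the library, the genes that rose took 9.59% to 10.7% of counts at stage 5, 13.2% to 16.1% at stage 6, 25.7% to 31.1% at stage 7 and 26.3% to 31.9% at stage 8. The genes that fell took 28.8% to 31.8% at stage 5, 22.2% to 27.0% at stage 6, 12.4% to 16.4% at stage 7 and 12.1% to 16% at stage 8. Shares of stages 6 and 7 follow from the choice of the genes, whereas those of stages 5 and 8 do not.

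A fit of the 12 libraries of stages 8 and 5, which shares no library with the fit of stages 7 and 6, gave calls to set beside these. It called 12647 of 20702 genes (61.1%), of which 6613 were higher at stage 8 than at stage 5 (31.9% of those tested) and 6034 lower (29.1%). Of the genes that rose between stages 6 and 7 and were tested in both fits, 3058 of 3404 (89.8%) were also called higher at stage 8 than at stage 5, against 30.7% of the 19987 genes tested in both. These were 49.8% of the 6135 genes called higher at stage 8 among those tested in both. Of the genes that fell, 2728 of 3157 (86.4%) were also called lower at stage 8, against 29.9% of the genes tested in both. They were 45.6% of the 5982 genes called lower at stage 8 among those tested in both. Opposite calls were rare, with 11 genes higher at stage 7 and lower at stage 8, and 12 genes the other way round. No test of this overlap was made.

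A larger change between stages 6 and 7 went with a larger difference between stages 8 and 5. Among genes whose fitted rise between stages 6 and 7 was up to 2-fold, 1179 of 1455 (81.0%) were called higher at stage 8 than at stage 5, with a median log2 difference of 0.91. Among those with a rise of over 8-fold, 369 of 371 (99.5%) were called, with a median log2 difference of 6.97. For genes with a fall of up to 2-fold the median stage 8 against stage 5 difference was -0.90, and for the 13 genes tested in both fits with a fall of over 8-fold it was -4.76. Among genes that fell, the share called lower at stage 8 was 85.6% up to 2-fold, 89% at 2- to 4-fold and 87.3% at 4- to 8-fold. It was 100% for the 13 genes over 8-fold. All 4 named genes were called in this fit as well, as were 61.1% of all genes tested in it. They were picked from lists of which 89.8% and 86.4% were called the same way, so nothing is read from that count. The log2 difference was 6.40 for OsIR64_02g0025330 (SE 0.27, edgeR adjusted p = 8.7e-11), -4.67 for OsIR64_07g0003090 (SE 0.92, edgeR adjusted p = 6.2e-04) and -1.27 for OsIR64_11g0025240 (SE 0.16, edgeR adjusted p = 4.7e-06), and OsIR64_01g0044260 had an edgeR adjusted p = 1.8e-08.

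**Figure D4:**
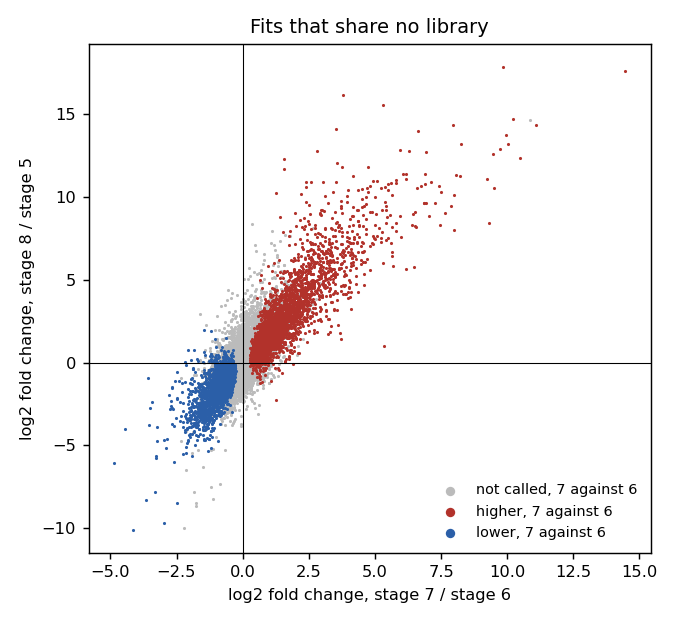
Log2 fold change of stage 8 against stage 5 (vertical axis) plotted against that of stage 7 against stage 6 (horizontal axis) for the 19987 genes tested in both fits, which share no library. Red and blue points are genes called higher and lower at stage 7; nearly all red points lie above 0 and nearly all blue points below 0 on the vertical axis.

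Libraries of the same stage differed in their medians over the genes that rose and over those that fell. At stage 7 the median over the genes that rose was 1.12 in mutant replicate 1, 1.06 and 1.03 in the libraries under both genotypes and 1.41 in wild-type replicate 1, the most extreme. The wild-type library had the highest stage 7 value for 58.1% of the genes that rose and the lowest for 64.3% of those that fell, against 29.8% and 32.9% of all genes tested. Over the genes that fell the medians were -0.58 in mutant replicate 1, -0.63 and -0.58 under both genotypes and -0.89 in wild-type replicate 1. At stage 6, wild-type replicate 2 lay nearest stage 7, at 0.18 over the genes that rose, and the library under both genotypes lay farthest, at -0.19. Mutant replicates 1 and 2 stood between them at 0.04 and 0.07, and wild-type replicate 1 at -0.11. Over the genes that fell, the stage 6 medians were -0.03 and -0.06 in mutant replicates 1 and 2, 0.09 in the library under both genotypes, and 0.15 and -0.14 in wild-type replicates 1 and 2. The wild-type stage 6 libraries thus stood at both ends of their stage on these genes.

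**Figure D5:**
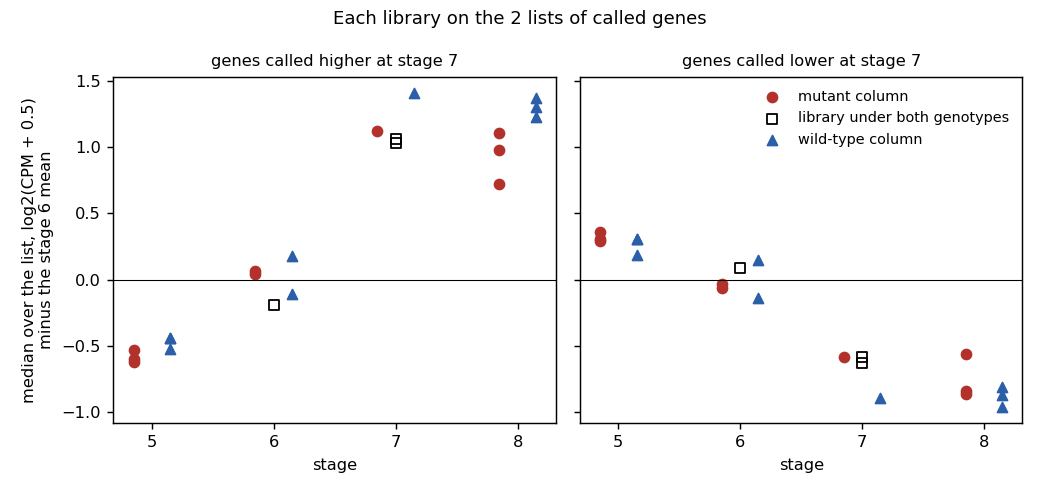
Median over the genes called higher (left) and lower (right) at stage 7 of log2(CPM + 0.5) minus the stage 6 mean (vertical axis) in each of the 21 distinct libraries by stage (horizontal axis). Red circles are mutant libraries, open squares libraries under both genotypes and blue triangles wild-type libraries; the wild-type stage 7 library stands at 1.41 and -0.89, beyond the other 3 stage 7 libraries.

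The wild-type stage 7 library also lay beyond the mean of the other stage 7 libraries when it had no part in choosing the genes. In the fit without the wild-type stage 7 library, that library had a median of 1.41 over the 3085 genes that rose, against 1.18 for the mean of the other stage 7 libraries. Over the 2167 genes that fell its median was -0.99, against -0.69. Each of the 9 libraries, left out in turn, lay nearer the mean of its own stage than that of the other for most genes of the lists chosen without it. This held for 93.6% of the genes that rose in the wild-type stage 7 library, for 85.0% to 90.7% in the other stage 7 libraries, and for 90.5% to 97.4% in 4 of the stage 6 libraries. For the genes that fell the shares were 93.9% in the wild-type stage 7 library, 71.5%, 82.4% and 83.1% in the other stage 7 libraries, and 83.1% to 97.4% in the same 4 stage 6 libraries. The lowest shares were 65.0% of the genes that rose and 69.2% of those that fell, in wild-type replicate 2 of stage 6, whose median of 0.33 over the genes that rose compared with 1.22 for stage 7.

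Whether the step differed between mutant and wild type was tested on the 18 libraries that stand under 1 genotype. Stage 7 then has 1 library per genotype, so the spread is borrowed from the other groups. No gene passed the threshold in edgeR, and 1629 of 25483 genes (6.39%) had an unadjusted p under 0.05. The number at an unadjusted p under 0.05 was 2629 (10.3%) without wild-type replicate 2 of stage 6 and 1131 (4.44%) without wild-type replicate 1 of stage 6, with no gene past the threshold in either. Over the genes that rose, the median log2 step was 1.06 in the mutant (1 against 2 libraries) and 1.34 in wild type (1 against 2 libraries). Over the genes that fell it was -0.55 in the mutant and -0.91 in wild type. A position along development, a difference between genotypes and the spread between single libraries cannot be told apart in these values.

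DESeq2 called 4 genes for this difference, which are named here after their values were seen. OsIR64_05g0022400 stood at 45.4 CPM in the mutant stage 7 library and at 23.0 and 31.9 CPM in the mutant stage 6 libraries. In wild type it stood at 9.97 CPM at stage 7 and at 35.7 and 37.9 CPM at stage 6 (DESeq2 adjusted p = 0.023; edgeR adjusted p = 0.70). The stage 7 libraries under both genotypes stood at 49.8 and 44.1 CPM. OsIR64_04g0015250 stood at 35.0 CPM in the mutant and 11 CPM in the wild-type stage 7 library, and at 35.9 and 21.9 CPM under both genotypes, with stage 6 values of 41.8 to 53.6 CPM in both genotypes (DESeq2 adjusted p = 0.023; edgeR adjusted p = 0.72). OsIR64_06g0027620 stood at 29.8 CPM in the mutant and 95.6 CPM in the wild-type stage 7 library, and at 40.1 and 46.1 CPM under both genotypes, with stage 6 values of 21 to 28.2 CPM in both (DESeq2 adjusted p = 0.047; edgeR adjusted p = 0.70). OsIR64_07g0021060 stood at 8.35 CPM in the mutant and 20.9 CPM in the wild-type stage 7 library, and at 12.9 and 16.1 CPM under both genotypes. Its stage 6 values were 15.5 and 13.6 CPM in the mutant and 9.39 and 7.16 CPM in wild type (DESeq2 adjusted p = 0.023; edgeR adjusted p = 0.70). The libraries under both genotypes thus lay between the mutant and the wild-type library for OsIR64_06g0027620 and OsIR64_07g0021060, and on either side of the mutant library for OsIR64_05g0022400 and OsIR64_04g0015250. These values rest on 1 stage 7 library per genotype.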

How the data were processed

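RNA sequencing measured young panicles. The deposited values were raw counts of reads for each gene. The authors mapped trimmed pairs to the IR64 genome with STAR and assigned them to a high-confidence annotation with HTSeq-count, as the series design text states. Trimmomatic 0.39 and kallisto are listed in the submitters' processing notes. Strand setting, annotation version and treatment of reads shared between paralogs are not stated in these sources, so counts of near-identical or overlapping genes are uncertain.

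Of 9 distinct libraries, 4 were of stage 7 and 5 of stage 6. Counts were tested with edgeR 4.0.16 (glmQLFit and glmQLFTest, robust) in R 4.3.3, with TMM scaling, genes kept by filterByExpr on stage, and stage as the only term (7 residual degrees of freedom). Standard errors come from the fitted log2 change and its F statistic. CPM is scaled to TMM sizes over the 21 distinct libraries; log values used a pseudocount of 0.5. 

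Named genes had the largest fitted change or the largest difference in mean CPM each way, among called genes whose stages did not overlap and whose higher stage had at least 5 CPM; 2546 rising and 2263 falling genes qualified. Genes, lists and tests were chosen with earlier results of these data known. The procedure was tested on simulated data. Alternatives were RLE scaling, no low-count filter, DESeq2 1.42.0, other sets of libraries, a genotype term, a 2-fold minimum, a replicate block and each library left out once. The genotype term over the 9 libraries counted the libraries under both genotypes as mutant, although their genotype is unresolved. Replicate numbers were not taken as pairs. Deviations from the stage means correlated at -0.09 to 0.21 over the 7 pairs with the same number. Over the 13 pairs with other numbers they correlated at -0.26 to 0.22. These values show no pairing but cannot exclude one.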

Additional observations from a re-analysis of the deposited data

Results flagged for a closer look

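Single libraries that stood far from the others of their stage were looked for in 40 sets of 4 to 6 values, and 6 stood apart. Chance would set apart about 1 in 20 if the sets were independent. They share libraries, so no excess over chance is read from the 6.

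At stage 7 the library apart was wild-type replicate 1. For OsIR64_11g0025240 it held 4234 CPM, against 5626 to 5812 CPM in the other 3 stage 7 libraries. Its median over the genes that fell was -0.89, against -0.63 to -0.58 in the others.

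At stage 8 it was mutant replicate 2 in 3 cases. OsIR64_01g0044260 stood at 3911 CPM there, against 1379 to 2120.0 CPM in the other 5 libraries. OsIR64_02g0025330 stood at 15130.3 CPM, against 5400.2 to 8028 CPM. Its median over the genes that fell was -0.56, against -0.96 to -0.81. OsIR64_07g0003090 stood at 2.77 CPM in mutant replicate 3 of stage 8, against 0 to 0.841 CPM in the others.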

How the results depend on the processing

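The counts of genes higher and lower at stage 7 stayed within 1.5 times of the values given in 16 of 18 alternatives each. Leaving out 1 library gave 3046 to 4235 higher and 2167 to 3551 lower, with 1832 to 2592 and 570 to 947 over 2-fold. Shared calls with stage 8 against 5 were then 2561 to 3346 higher and 1925 to 2919 lower. The 6 libraries of resolved genotype gave 2100 higher and 833 lower, 530 of these over 2-fold lower, with 1922 and 780 shared calls. The 2-fold minimum gave 938 and 87, with 842 and 86 shared calls. The cause of the smaller number with 6 libraries was not tested beyond its fewer samples. RLE scaling gave 3683 and 3049, and DESeq2 4087 and 3494. The 6 mutant columns alone, chosen after seeing the data, gave 3965 and 2554. These columns include the libraries under both genotypes. The replicate block gave 3792 and 3234, with 3455 and 2975 genes in common with the fit without it. The test of a genotype difference gave 4 genes with DESeq2 and 0 in the other 20 alternatives; leaving out a lone stage 7 library was not possible, since its group would be empty. For stage 8 against 5, all alternatives gave 6355 to 8402 higher and 5677 to 6785 lower genes. The difference in detected genes was 650 to 734 when 1 library was left out, where the adjusted p was 0.086 or 0.11 because fewer splits exist. The number of genes that hold 90% of counts was higher at stage 7 by 89 (exact permutation test, adjusted p = 0.35), the reverse of the measure at 50%. OsIR64_01g0044260 had an adjusted p = 0.097 with the 2-fold minimum and 0.074 with the mutant columns alone.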

Other observations

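Called genes were spread over identifiers of all 12 numbers that precede the letter g in the identifier. The share higher at stage 7 ran from 15.4% (number 8) to 19.0% (number 6), and the share lower from 13.3% (number 6) to 17.7% (number 12). Positions of the genes were not used here, and the order of identifiers was taken as it stands. Among 13792 pairs of genes tested whose identifiers follow each other without a gap, the next gene was also higher for 493 of 2380 genes that rose (20.7%), against 17.3% of all next genes. For genes that fell it was also lower for 354 of 2162 (16.4%), against 15.4%. For genes that rose over 4-fold, the next gene had also risen over 4-fold for 46 of 605 (7.60%), against 4.28%. No test of these shares was made.

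Of the genes that rose and were tested in both fits, 346 (10.2%) were not called higher at stage 8 than at stage 5, and of those that fell 429 (13.6%) were not called lower.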
